A study of Mus musculus with 16 samples.

Results

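The enzymes of amino acid catabolism were followed as a set of 39 listed genes, chosen by pathway and found on the arrays through the gene name that the scanner files print for each probe. Of these, 37 had a probe (49 probes in all) and all 37 were among the 16672 genes tested, while no probe carried the name Gstz2 or Amt. They fell into tyrosine (4 genes measured), tryptophan (4), histidine (4), glycine and methionine (10), branched-chain amino acid (8) and other amino acid (7) pathways. The study profiled mouse liver RNA on 2-colour oligonucleotide arrays, with a pair of dye-swapped arrays for each of 8 numbered experiments.

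The double KO livers were Atg7F/F:Mx1-Cre:Nrf2-/-, the Atg7 cKO livers Atg7F/F:Mx1-Cre, and the Nrf2 KO livers Nrf2-/-, each set against wild type. Double KO was compared with wild type in experiments 3 and 6, Atg7 cKO with wild type in experiments 2 and 5, Nrf2 KO with wild type in experiments 1 and 4, and double KO directly with Atg7 cKO in experiments 7 and 8. Per the labels, all mice received pIpC, a synthetic double-stranded RNA that induces the Mx1 promoter, and the design text gives an age of 8 weeks at injection and 4 weeks from injection to RNA. Controls and mutants thus shared the pIpC treatment. The Mx1 promoter responds to interferon, so Cre is active in hepatocytes but also in blood-forming and other liver cells, and the deletion of Atg7 is not limited to hepatocytes. The labels give neither the number of mice behind an experiment nor their sex, so the p-values below measure the spread between experiments only.

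The liver is the main site where amino acids are broken down. Each pathway removes the amino group and passes the carbon skeleton through a short chain of cytosolic or mitochondrial enzymes towards glucose, ketone bodies or the citric acid cycle, and most of these enzymes are abundant in hepatocytes and scarce in other liver cells. Atg7 is needed to form autophagosomes, the vesicles that supply amino acids by digesting cell content, and Nrf2 (gene Nfe2l2) is the transcription factor of the oxidative stress response.

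The quantity measured for each gene was the brightness of a 60-base probe. The probes of Hpd, Tdo2 and Pcca are shown because their 60 bases cover more than 60 bases of the genome, so each joins sequence from separate exons, and each has a reading frame without a stop. The Hpd probe lies on the minus strand at chr5:123622237-123624360, the brighter Tdo2 probe on the minus strand at chr3:81772155-81773432, and the Pcca probe on the plus strand at chr14:123212448-123276023 (build mm9, as in the scanner files).
Hpd probe: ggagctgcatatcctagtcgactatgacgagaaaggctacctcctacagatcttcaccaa
Tdo2 probe: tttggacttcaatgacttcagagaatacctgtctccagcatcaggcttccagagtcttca
Pcca probe: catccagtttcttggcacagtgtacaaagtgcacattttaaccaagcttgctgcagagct
The probe that stands for a gene was well above background in all 24 channels of experiments 1 to 6 for all 37 genes, so every ratio of experiments 1 to 6 was measured on both sides and no member entered the test through a single group. For the direct arrays only ratios were used, and their background was not checked.

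Promoters, from 250 bases before to 50 bases after the start of the gene, were available from RefSeq (GRCm38.p6) for 30 of the 39 listed genes, in 32 entries. They were searched on both strands for 7 motifs of liver and stress factors, and the motifs did not overlap each other in the promoters shown. CAAAGNCCA, written for HNF4, was found in 2 of the 32 member promoters and in 1.98% of all 32851 promoters of that length. GTTAAT, part of an HNF1 site, was found in 4 of 32 and in 7.1% of all. TGACNNNGC, the core of the antioxidant response element bound by Nrf2, was found in 4 of 32 and in 12.4% of all, and TGATGCAA, a combined ATF4 and C/EBP site, in 1 of 32 and in 0.895% of all. TTGCGCAA (C/EBP, 0.183% of all promoters), TGTTTAC (FOXA, 3.65%) and TGACGTCA (CRE, 1.79%) were in none of the 32. The promoters of Ahcy (chr2:155074448-155074747, minus strand) and Haao (chr17:83846741-83847040, minus strand) are printed for their HNF4 letters, with the HNF1 letters also in Haao, that of Got1 (chr19:43524556-43524855, minus strand) for the ATF4 and C/EBP letters, and that of Prodh (chr16:18089141-18089440, minus strand) for the antioxidant response element letters, each match in capitals. The promoters of Tat (chr8:109990186-109990485, plus strand) and Oat (chr7:132576349-132576648, minus strand) are printed because these genes differed most between double KO and Atg7 cKO, and neither held any of the 7 motifs in this window.
Ahcy promoter: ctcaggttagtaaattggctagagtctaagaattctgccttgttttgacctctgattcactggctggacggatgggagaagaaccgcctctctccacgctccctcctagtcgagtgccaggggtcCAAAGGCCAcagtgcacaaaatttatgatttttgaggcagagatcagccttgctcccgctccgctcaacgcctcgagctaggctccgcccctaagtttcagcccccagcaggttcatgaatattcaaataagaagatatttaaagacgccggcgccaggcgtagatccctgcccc
Haao promoter: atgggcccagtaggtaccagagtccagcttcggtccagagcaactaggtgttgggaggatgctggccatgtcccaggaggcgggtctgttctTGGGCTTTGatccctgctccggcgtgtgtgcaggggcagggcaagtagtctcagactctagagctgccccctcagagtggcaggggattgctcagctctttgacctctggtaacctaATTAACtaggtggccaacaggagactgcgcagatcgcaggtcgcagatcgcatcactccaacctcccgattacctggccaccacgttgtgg
Got1 promoter: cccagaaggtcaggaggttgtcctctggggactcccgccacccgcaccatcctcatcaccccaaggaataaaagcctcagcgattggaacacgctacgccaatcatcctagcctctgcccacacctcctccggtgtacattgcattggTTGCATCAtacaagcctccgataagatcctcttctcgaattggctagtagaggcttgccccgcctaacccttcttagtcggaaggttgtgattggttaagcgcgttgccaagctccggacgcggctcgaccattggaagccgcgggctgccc
Prodh promoter: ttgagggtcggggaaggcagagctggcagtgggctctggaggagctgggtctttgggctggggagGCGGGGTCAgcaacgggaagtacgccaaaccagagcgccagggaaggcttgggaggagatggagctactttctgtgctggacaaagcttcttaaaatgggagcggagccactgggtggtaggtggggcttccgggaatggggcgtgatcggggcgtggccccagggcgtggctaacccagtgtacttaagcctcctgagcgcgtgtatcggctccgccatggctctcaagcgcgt
Tat promoter: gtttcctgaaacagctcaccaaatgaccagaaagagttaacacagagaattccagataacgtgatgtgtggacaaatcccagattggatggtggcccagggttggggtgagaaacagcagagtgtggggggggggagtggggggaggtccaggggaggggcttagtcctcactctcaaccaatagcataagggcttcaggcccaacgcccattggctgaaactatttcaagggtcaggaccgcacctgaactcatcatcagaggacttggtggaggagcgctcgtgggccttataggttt
Oat promoter: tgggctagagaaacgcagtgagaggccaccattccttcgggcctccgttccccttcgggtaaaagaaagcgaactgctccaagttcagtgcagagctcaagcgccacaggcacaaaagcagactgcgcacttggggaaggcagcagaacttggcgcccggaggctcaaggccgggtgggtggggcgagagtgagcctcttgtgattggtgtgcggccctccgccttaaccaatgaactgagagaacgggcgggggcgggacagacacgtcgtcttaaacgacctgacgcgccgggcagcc
These matches describe letters in a short window, and binding was not measured.

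The genotypes were visible on the arrays. The probe for Nfe2l2 had log2 ratios of -3.31 and -4.10 in double KO livers, 1.27 and 1.13 in Atg7 cKO livers and -3.78 and -3.97 in Nrf2 KO livers, all against wild type, and the probe for Atg7 had -0.73 and -0.73, -0.79 and -0.82, and -0.097 and -0.0005 in the same order. A further probe for each of these genes showed no such change. Xist, which is transcribed from the inactive X chromosome, had a log2 signal of 11.15 to 11.21 in the wild-type channels of experiments 4 to 6, against 5.76 to 5.80 in experiments 1 to 3, and the Y-linked Ddx3y had 5.78 to 5.81 in experiments 4 to 6, against 7.65 to 7.78 in experiments 1 to 3. By these transcripts the wild-type RNA was of female type in experiments 4 to 6 and of male type in experiments 1 to 3. The 2 experiments of each comparison with wild type therefore come from sets that differ in sex, and each set holds 1 experiment of each of these comparisons. The spread between experiments thus includes the difference between the sets, in which sex and other differences cannot be told apart.

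Most members were lower in both kinds of Atg7-deficient liver. In double KO livers 32 of 37 members were lower than in wild type and 0 higher, with a median log2 ratio of -0.83, where 15.9% of all genes tested were called lower and 21.2% higher. In Atg7 cKO livers 31 of 37 were lower and 0 higher, with a median of -1.06, where 16.2% of all genes were called lower and 23.2% higher. The median over all genes was 0.0049 in double KO and 0.0027 in Atg7 cKO. A call here is a Benjamini-Hochberg adjusted p under 0.05 from limma over all genes. The calls covered 27 members in both comparisons, 4 in Atg7 cKO only (Tat, Oat, Cdo1 and Bckdhb), 5 in double KO only (Tdo2, Ftcd, Gldc, Mccc1 and Bckdha) and Sds in neither. These classes depend on the fit. With the set of experiments as a block, Oat (limma adjusted p = 0.00259) and Cdo1 (limma adjusted p = 0.0356) were also called lower in double KO livers. Mccc1 (limma adjusted p = 0.0482) was then also called lower in Atg7 cKO livers. In Nrf2 KO livers 0 of 37 members were called, and their median was -0.073, which became 0.060 when the arrays were centred on their median in place of loess. Without double KO experiment 3 the double KO count was 18 of 37, and with median centring the Atg7 cKO count was 19 of 37. In bulk liver RNA, fewer hepatocytes and less of an mRNA per hepatocyte cannot be told apart.

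**Figure D1:**
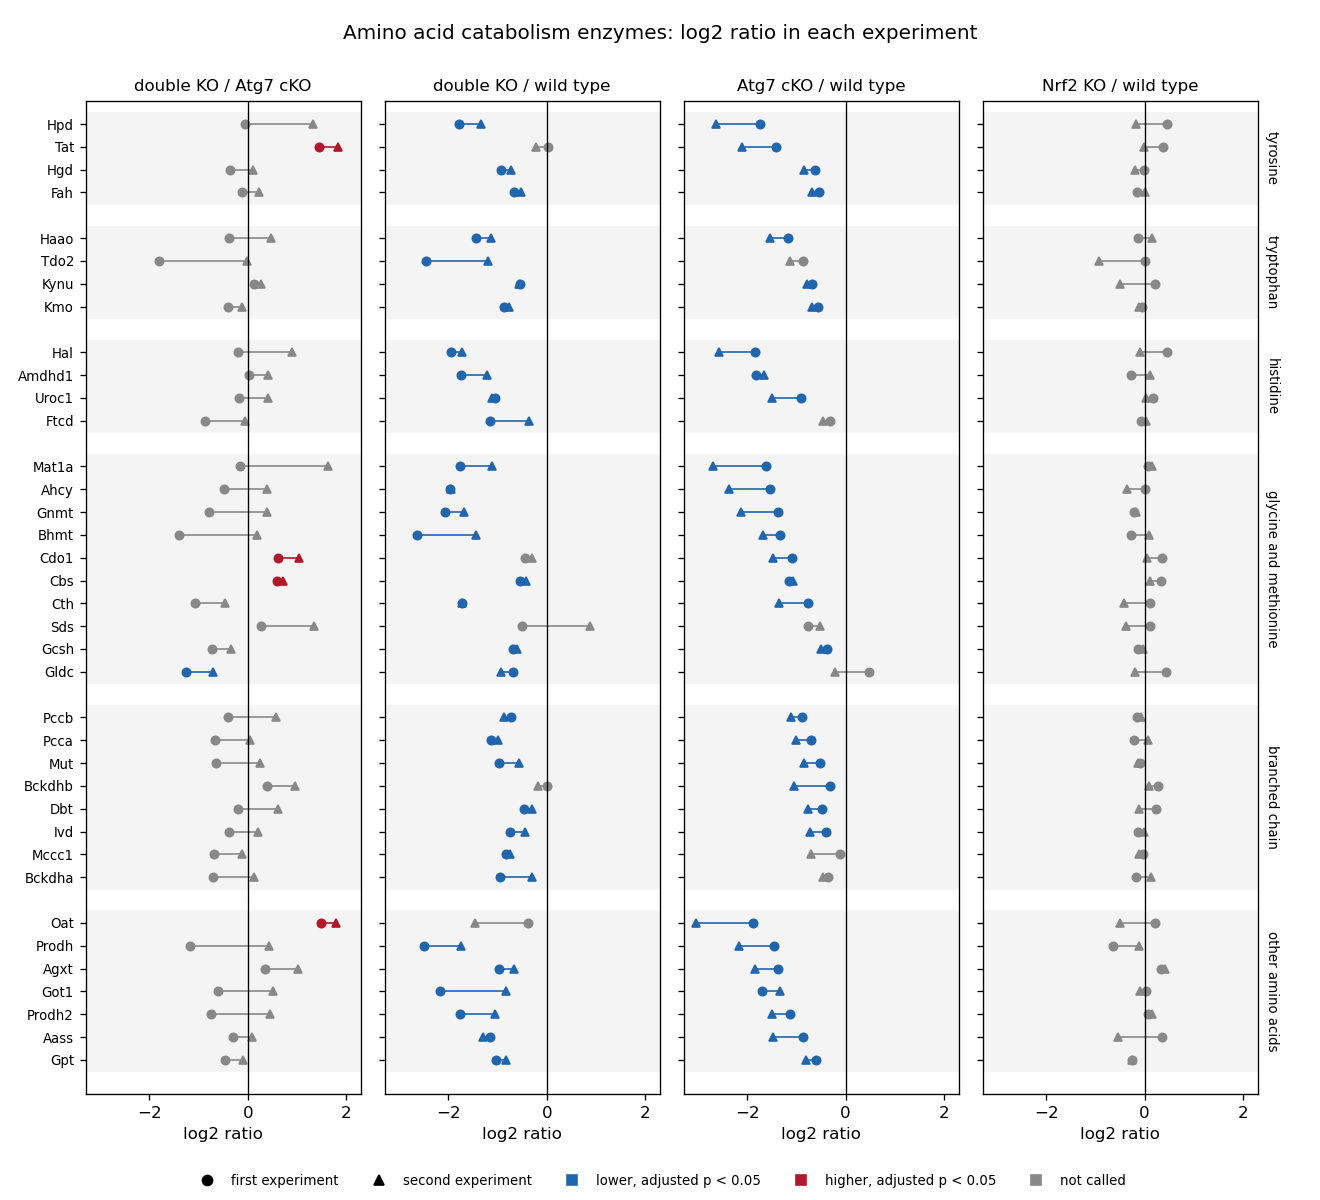
Log2 ratio (horizontal axis) of each of the 37 measured members (rows, grouped by pathway and sorted by the Atg7 cKO ratio) in the 4 comparisons, with a circle for the first and a triangle for the second experiment of each comparison and colour for the limma call. Blue points fill the double KO and Atg7 cKO panels, with 32 and 31 members lower, the Nrf2 KO panel has 0 calls, and in the direct panel Tat, Oat, Cdo1 and Cbs lie to the right and Gldc to the left of 0.

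Tyrosine is degraded by a chain that starts with Tat (tyrosine aminotransferase) and goes on through Hpd (hydroxyphenylpyruvate dioxygenase), Hgd (homogentisate dioxygenase) and Fah (fumarylacetoacetase, the last step). All 4 fell in Atg7 cKO livers and 3 of 4 in double KO livers. The log2 signal of Hpd was 10.84 and 11.66 in double KO livers, 10.67 and 10.46 in Atg7 cKO livers, 12.73 and 12.63 in Nrf2 KO livers and 12.27 to 13.10 with a median of 12.72 in the 6 wild-type channels. Every Atg7-deficient value lay below every wild-type value, and the Nrf2 KO values lay within the pooled range of the 6 wild-type channels. Against its own set, Nrf2 KO experiment 1 was above the wild-type values (12.27 to 12.63 in experiments 1 to 3). Nrf2 KO experiment 4 was below those of its set (12.81 to 13.10 in experiments 4 to 6). The Nrf2 KO log2 ratios of Hpd were 0.46 and -0.18. Its log2 ratio was -1.57 ± 0.26 (SE, limma adjusted p = 0.00899) in double KO livers and -2.19 ± 0.26 (SE, limma adjusted p = 0.00328) in Atg7 cKO livers, which is 2.96-fold and 4.57-fold lower than wild type. For Tat the signal was 12.98 and 13.13 in double KO livers, 11.53 and 11.52 in Atg7 cKO livers, 13.10 and 13.31 in Nrf2 KO livers and 12.73 to 13.62 with a median of 13.14 in the 6 wild-type channels. Here only the Atg7 cKO values lay below the pooled wild-type range, and the double KO and Nrf2 KO values lay inside it. Within a set this did not hold, since the wild-type values of the sets did not overlap. Among experiments 1 to 3 the highest wild-type value was 12.96, which was below double KO experiment 3 and Nrf2 KO experiment 1. Among experiments 4 to 6 the lowest was 13.32, which was above double KO experiment 6 and Nrf2 KO experiment 4. The log2 ratio of Tat was -0.090 ± 0.18 (SE, limma adjusted p = 0.732) in double KO livers, which did not pass the test, and -1.76 ± 0.18 (SE, limma adjusted p = 0.00234) in Atg7 cKO livers. Hgd had a signal of 10.81 and 10.89 in double KO livers, 10.99 and 10.78 in Atg7 cKO livers, 11.60 and 11.46 in Nrf2 KO livers and 11.61 to 11.75 with a median of 11.63 in the 6 wild-type channels. The wild-type range of Hgd was narrow, and all values of the 3 knockout groups were below it, those of Nrf2 KO by the least. Its ratio was -0.83 ± 0.090 (SE, limma adjusted p = 0.00264) in double KO and -0.74 ± 0.090 (SE, limma adjusted p = 0.00338) in Atg7 cKO livers. Fah had ratios of -0.59 in double KO and -0.62 in Atg7 cKO livers, and both passed the test.

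Tryptophan enters the kynurenine pathway through Tdo2 (tryptophan dioxygenase), and Kmo (kynurenine monooxygenase), Kynu (kynureninase) and Haao (hydroxyanthranilate dioxygenase) carry it towards NAD. All 4 fell in double KO livers and 3 of 4 in Atg7 cKO livers. Tdo2 had a log2 signal of 8.90 and 10.14 in double KO livers, 10.71 and 10.24 in Atg7 cKO livers, 11.20 and 10.23 in Nrf2 KO livers and 11.17 to 11.57 with a median of 11.35 in the 6 wild-type channels. The lowest value was that of double KO experiment 3, the other Atg7-deficient values were also below the wild-type range, and Nrf2 KO experiment 4 was as low as the second double KO and Atg7 cKO values. The log2 ratio was -1.83 ± 0.35 (SE, limma adjusted p = 0.0139) in double KO livers and -0.99 ± 0.35 (SE, limma adjusted p = 0.0785) in Atg7 cKO livers, where it did not pass. The difference between these ratios was not called either, as given below. For Haao the signal was 7.60 and 7.59 in double KO livers, 7.66 and 7.20 in Atg7 cKO livers, 8.76 and 9.17 in Nrf2 KO livers and 8.73 to 9.04 with a median of 8.87 in the 6 wild-type channels. All Atg7-deficient values of Haao were below the wild-type range, and Nrf2 KO experiment 4 was above it. The ratio was -1.29 ± 0.13 (SE, limma adjusted p = 0.00215) in double KO and -1.36 ± 0.13 (SE, limma adjusted p = 0.00186) in Atg7 cKO livers. Kynu had 8.61 and 8.60 in double KO livers, 8.41 and 8.39 in Atg7 cKO livers, 9.33 and 8.70 in Nrf2 KO livers and 9.09 to 9.19 with a median of 9.16 in the 6 wild-type channels. The Atg7-deficient values again lay below the wild-type range, while Nrf2 KO experiment 1 was above it and experiment 4 below it. Its ratio was -0.56 ± 0.16 (SE, limma adjusted p = 0.0487) in double KO and -0.73 ± 0.16 (SE, limma adjusted p = 0.0211) in Atg7 cKO livers, close to the threshold in double KO. Kmo was lower by a similar amount in both, with -0.82 in double KO and -0.62 in Atg7 cKO livers.

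Histidine is broken down by Hal (histidine ammonia-lyase), Uroc1 (urocanate hydratase), Amdhd1 (imidazolonepropionase) and Ftcd (formiminotransferase cyclodeaminase), in that order. All 4 fell in double KO livers and 3 of 4 in Atg7 cKO livers. Hal had a log2 signal of 10.86 and 11.06 in double KO livers, 10.83 and 10.30 in Atg7 cKO livers, 12.93 and 12.51 in Nrf2 KO livers and 12.47 to 12.88 with a median of 12.73 in the 6 wild-type channels. The Atg7-deficient values were all at least 1 log2 unit below the lowest wild-type value, and the Nrf2 KO values were not low. The log2 ratio was -1.84 ± 0.21 (SE, limma adjusted p = 0.00317) in double KO and -2.21 ± 0.21 (SE, limma adjusted p = 0.00192) in Atg7 cKO livers, 3.57-fold and 4.62-fold lower. Amdhd1 had 9.40 and 9.38 in double KO livers, 9.09 and 8.97 in Atg7 cKO livers, 10.54 and 10.86 in Nrf2 KO livers and 10.61 to 11.14 with a median of 10.78 in the 6 wild-type channels. The Atg7-deficient values did not overlap with wild type, the Atg7 cKO values were the lowest, and Nrf2 KO experiment 1 was just below the wild-type range. Its ratio was -1.49 ± 0.15 (SE, limma adjusted p = 0.00228) in double KO and -1.75 ± 0.15 (SE, limma adjusted p = 0.00155) in Atg7 cKO livers. Uroc1 had ratios of -1.08 and -1.20 in double KO and Atg7 cKO livers. Ftcd, the last enzyme, had -0.75 in double KO livers, where it passed, and -0.40 in Atg7 cKO livers, where it did not (limma adjusted p = 0.146).

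Methionine is converted to S-adenosylmethionine by Mat1a, the methyl donor is used up by Gnmt (glycine N-methyltransferase), and Ahcy (adenosylhomocysteinase) releases homocysteine. Bhmt remethylates homocysteine with betaine, or Cbs and Cth turn it into cysteine, which Cdo1 (cysteine dioxygenase) oxidises. Gldc and Gcsh belong to the glycine cleavage system and Sds dehydrates serine. Of these 10 genes 8 fell in double KO livers and 8 in Atg7 cKO livers. Mat1a had a log2 signal of 11.30 and 12.12 in double KO livers, 11.26 and 10.69 in Atg7 cKO livers, 12.74 and 13.34 in Nrf2 KO livers and 12.69 to 13.39 with a median of 13.13 in the 6 wild-type channels. Double KO experiment 6 stood between the other Atg7-deficient values and the wild-type range, without reaching it, and the Nrf2 KO values were inside that range. The ratio of Mat1a was -1.43 ± 0.28 (SE, limma adjusted p = 0.0143) in double KO and -2.16 ± 0.28 (SE, limma adjusted p = 0.00402) in Atg7 cKO livers. Ahcy, with 11.46 and 11.60 in double KO livers, 11.74 and 11.28 in Atg7 cKO livers, 13.11 and 13.18 in Nrf2 KO livers and 13.10 to 13.66 with a median of 13.49 in the 6 wild-type channels, was similarly low in all 4 Atg7-deficient channels. Its ratio was -1.96 ± 0.20 (SE, limma adjusted p = 0.00239) in double KO and -1.96 ± 0.20 (SE, limma adjusted p = 0.00234) in Atg7 cKO livers. Bhmt had 11.40 and 12.15 in double KO livers, 12.42 and 12.02 in Atg7 cKO livers, 13.17 and 13.28 in Nrf2 KO livers and 13.20 to 14.03 with a median of 13.64 in the 6 wild-type channels. Every Atg7-deficient value was below the wild-type range, and Nrf2 KO experiment 1 was just below it. The ratio of Bhmt was -2.04 ± 0.28 (SE, limma adjusted p = 0.00517) in double KO and -1.51 ± 0.28 (SE, limma adjusted p = 0.0124) in Atg7 cKO livers. Gnmt, with -1.87 and -1.75, and Cth, with -1.73 and -1.06, also fell in both.

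Cbs and Cdo1 had a smaller decrease in double KO than in Atg7 cKO livers. For Mat1a this held for the mean ratio only, and the difference was called neither directly nor through wild type. In processed ratios, the Mat1a difference was -0.078 for experiment 3 minus experiment 2 and 1.67 for experiment 6 minus experiment 5. Cbs had a log2 signal of 9.06 and 9.57 in double KO livers, 8.49 and 8.88 in Atg7 cKO livers, 10.13 and 10.02 in Nrf2 KO livers and 9.61 to 9.99 with a median of 9.85 in the 6 wild-type channels. Its values in the 4 groups stood in the order Atg7 cKO, double KO, wild type, Nrf2 KO, with no overlap between neighbours. The ratio was -0.49 ± 0.072 (SE, limma adjusted p = 0.00605) in double KO and -1.11 ± 0.072 (SE, limma adjusted p = 0.000909) in Atg7 cKO livers. Cdo1 had 11.98 and 12.15 in double KO livers, 11.24 and 11.09 in Atg7 cKO livers, 12.50 and 12.28 in Nrf2 KO livers and 12.15 to 12.56 with a median of 12.38 in the 6 wild-type channels. The double KO values touched the lower end of the wild-type range and the Atg7 cKO values were about 1 log2 unit below it, and the Nrf2 KO values were inside it. Its ratio was -0.37 ± 0.12 (SE, limma adjusted p = 0.0563) in double KO livers, which missed the threshold in the fit without a block, and -1.29 ± 0.12 (SE, limma adjusted p = 0.00167) in Atg7 cKO livers. Gldc had the opposite pattern, with 9.82 and 9.97 in double KO livers, 10.86 and 10.69 in Atg7 cKO livers, 10.84 and 10.67 in Nrf2 KO livers and 10.39 to 10.89 with a median of 10.70 in the 6 wild-type channels. The double KO values alone were below the range of all 6 wild-type channels. Atg7 cKO experiment 5 and Nrf2 KO experiment 4 were also below the wild-type values of their own set (10.88 to 10.89 in experiments 4 to 6). Atg7 cKO experiment 2 and Nrf2 KO experiment 1 were above those of theirs (10.39 to 10.51 in experiments 1 to 3). Its ratio was -0.81 ± 0.22 (SE, limma adjusted p = 0.0373) in double KO and 0.13 ± 0.22 (SE, limma adjusted p = 0.656) in Atg7 cKO livers, and the Atg7 cKO experiments had opposite signs (0.48 and -0.21). Gcsh fell by a small amount in both (-0.65 in double KO and -0.45 in Atg7 cKO). Sds passed in neither and its double KO experiments also had opposite signs (-0.51 and 0.89, against -0.76 and -0.52 in Atg7 cKO).

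Branched-chain amino acids lose their carboxyl group in the complex of Bckdha, Bckdhb and Dbt, after which Ivd and Mccc1 act on leucine, and Pcca, Pccb and Mut carry propionate from isoleucine and valine to succinate. Of the 8 genes 7 fell in double KO livers and 6 in Atg7 cKO livers, and the median log2 ratios of -0.69 and -0.65 were the smallest decreases of the 6 pathways. Pcca had a log2 signal of 7.71 and 7.99 in double KO livers, 8.33 and 7.87 in Atg7 cKO livers, 8.86 and 8.88 in Nrf2 KO livers and 8.81 to 9.09 with a median of 8.94 in the 6 wild-type channels. The Atg7-deficient values were all below the wild-type range, which held both Nrf2 KO values. Its ratio was -1.06 ± 0.10 (SE, limma adjusted p = 0.00205) in double KO and -0.86 ± 0.10 (SE, limma adjusted p = 0.0034) in Atg7 cKO livers. Pccb, the partner subunit, had 6.59 and 6.79 in double KO livers, 6.76 and 6.46 in Atg7 cKO livers, 7.49 and 7.39 in Nrf2 KO livers and 7.31 to 7.66 with a median of 7.61 in the 6 wild-type channels, also with no overlap between Atg7-deficient and wild-type values. The ratio was -0.80 ± 0.077 (SE, limma adjusted p = 0.00196) in double KO and -1.001 ± 0.077 (SE, limma adjusted p = 0.00123) in Atg7 cKO livers. Mut, which follows them, had -0.77 and -0.69, and Ivd had -0.60 and -0.56, in double KO and Atg7 cKO livers. Dbt had -0.39 and -0.62 in the same groups and passed in both. Bckdha had -0.62 in double KO and -0.41 in Atg7 cKO livers, and Mccc1 had -0.79 and -0.42, both past the threshold in double KO livers only in the fit without a block. Bckdhb was called in Atg7 cKO livers only, with -0.078 in double KO and -0.68 in Atg7 cKO livers, although the proteins of Bckdha and Bckdhb work in the same enzyme complex.

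The remaining members act on ornithine (Oat, ornithine aminotransferase), proline and hydroxyproline (Prodh, Prodh2), glyoxylate and serine (Agxt), aspartate (Got1), alanine (Gpt) and lysine (Aass). All 7 fell in Atg7 cKO livers and 6 of 7 in double KO livers. Oat had a log2 signal of 12.05 and 11.98 in double KO livers, 10.66 and 10.58 in Atg7 cKO livers, 12.55 and 12.72 in Nrf2 KO livers and 12.34 to 13.64 with a median of 12.88 in the 6 wild-type channels. Atg7 cKO values were the lowest, double KO values lay between them and the wild-type range, and the wild-type range itself was wide. Its ratio was -0.92 ± 0.38 (SE, limma adjusted p = 0.12) in double KO livers, which did not pass in the fit without a block, and -2.47 ± 0.38 (SE, limma adjusted p = 0.00684) in Atg7 cKO livers, the largest decrease of any member (5.55-fold). Prodh had 9.83 and 10.34 in double KO livers, 10.76 and 9.91 in Atg7 cKO livers, 11.49 and 11.69 in Nrf2 KO livers and 11.81 to 12.33 with a median of 12.11 in the 6 wild-type channels. All knockout values, those of Nrf2 KO included, were below the wild-type range, most so in double KO experiment 3 and Atg7 cKO experiment 5. The ratio of Prodh was -2.13 ± 0.26 (SE, limma adjusted p = 0.00348) in double KO livers, their largest decrease, and -1.81 ± 0.26 (SE, limma adjusted p = 0.00522) in Atg7 cKO livers. Got1 had 10.53 and 11.66 in double KO livers, 10.90 and 11.23 in Atg7 cKO livers, 12.49 and 12.18 in Nrf2 KO livers and 12.28 to 12.70 with a median of 12.53 in the 6 wild-type channels. The double KO experiments were far apart, and Nrf2 KO experiment 4 was just below the wild-type range. The ratio was -1.50 ± 0.31 (SE, limma adjusted p = 0.017) in double KO and -1.53 ± 0.31 (SE, limma adjusted p = 0.0156) in Atg7 cKO livers. Prodh2 (-1.41 in double KO and -1.32 in Atg7 cKO), Agxt (-0.81 and -1.60), Aass (-1.23 and -1.18) and Gpt (-0.94 and -0.71) passed in both.

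**Figure D2:**
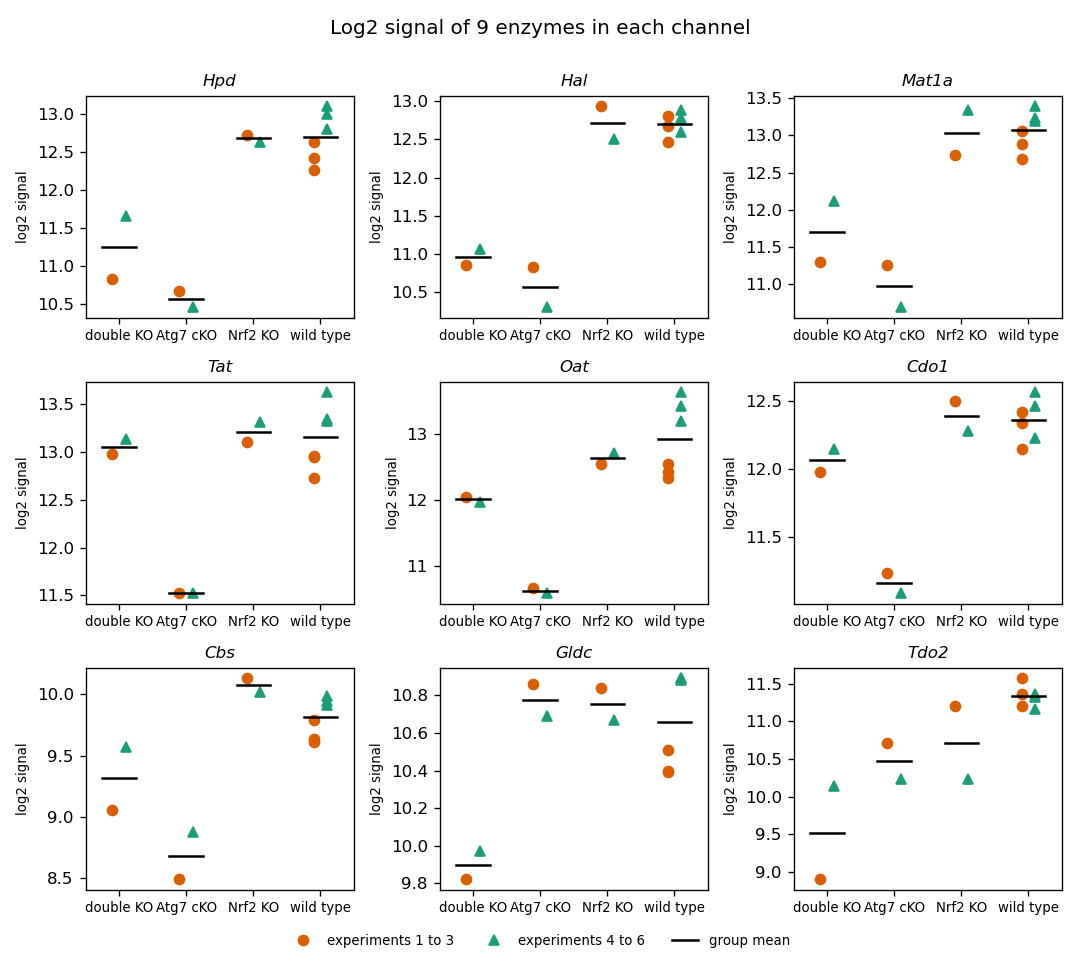
Log2 signal per channel (vertical axis, own range in each panel) of 9 enzymes in double KO, Atg7 cKO, Nrf2 KO and wild-type livers, with circles for experiments 1 to 3, triangles for experiments 4 to 6 and a bar at the group mean. Hpd, Hal and Mat1a are low in both kinds of Atg7-deficient liver. Tat in double KO livers (12.98 and 13.13) lies within the wild-type range of both sets together. Gldc is below that pooled range only in double KO livers (9.82 and 9.97).

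By pathway, the median log2 ratio in double KO livers was -0.71 for tyrosine, -1.05 for tryptophan, -1.28 for histidine, -1.12 for glycine and methionine, -0.69 for branched-chain and -1.23 for the other amino acids. In Atg7 cKO livers the medians were -1.25, -0.86, -1.47, -1.20, -0.65 and -1.53 in the same order of pathways. The histidine and other amino acid pathways thus had the lowest medians in both comparisons, while the tyrosine median was lower in Atg7 cKO livers and the tryptophan median lower in double KO livers. For tryptophan this rested on double KO experiment 3 against Atg7 cKO experiment 2 (-1.16 and -0.77). Double KO experiment 6 and Atg7 cKO experiment 5 had nearly equal medians (-0.949 and -0.954). These medians rest on 4 to 10 genes each and the differences between pathways were not tested.

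In Nrf2 KO livers the log2 ratios of the 37 members lay between -0.47 (Tdo2) and 0.37 (Agxt), 24 of them below 0. Over all genes 0.0120% were called lower and 0% higher, which are 2 genes in all. At an unadjusted p under 0.05 limma gave 3 members, Gpt (-0.25 ± 0.076, SE), Cbs (0.22 ± 0.072) and Agxt (0.37 ± 0.13), each with the same sign in both experiments and an adjusted p of 1, where 3.69% of all genes passed that unadjusted threshold. Both Nrf2 KO signals were below the range of the 6 wild-type channels for 5 members (Hgd, Gnmt, Mut, Prodh and Gpt) and above it for Cbs, where 2.74% of all genes were below and 4.82% above. Tdo2 differed between its experiments (0 and -0.94), as did Prodh (-0.64 and -0.12). The standard errors of the members in this fit had a median of 0.165 on the log2 scale. The largest ratio of a member, that of Tdo2, had a larger standard error (0.35) and was not called.

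The direct arrays asked what the loss of Nrf2 adds in Atg7-deficient liver. In double KO against Atg7 cKO livers 4 members were higher and 1 lower, where 6.72% of all genes were called higher and 8.07% lower, and the member median was -0.049. Tat had log2 ratios of 1.44 and 1.84 in experiments 7 and 8, with a fitted 1.64 ± 0.21 (SE, limma adjusted p = 0.00839), which is 3.12-fold higher in double KO livers. Oat had 1.48 and 1.79, with a fitted 1.64 ± 0.38 (SE, limma adjusted p = 0.0401) or 3.11-fold. Cdo1 had 0.62 and 1.05 (0.84 ± 0.16 (SE, limma adjusted p = 0.0238)) and Cbs 0.59 and 0.72 (0.65 ± 0.11 (SE, limma adjusted p = 0.0159)). Gldc was the member called lower, with -1.25 and -0.70 and -0.98 ± 0.25 (SE, limma adjusted p = 0.049). These 5 genes had the same sign in both direct experiments, and all but Gldc also had lower levels in Atg7 cKO than in wild-type livers. Of the 8 measured hepatocyte markers 2 (Ahsg and Fgb) were also called higher on the direct arrays and 0 lower, with a median of 0.64, as were 5 of 9 lymphocyte, 2 of 9 macrophage and 1 of 6 neutrophil markers. Of the macrophage, cholangiocyte and endothelial markers 1 each was lower, and the part of these markers in the 5 calls was not tested. In the contrast through wild type, given below, 2 hepatocyte and 2 macrophage markers were called higher, but 0 lymphocyte and 0 neutrophil markers. The lymphocyte and neutrophil medians were 0.23 and 0.28 there, against 0.85 and 1.03 on the direct arrays.

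The same contrast taken through wild type, from experiments 2, 3, 5 and 6, called 3 members higher and 0 lower, where 1.75% of all genes were higher and 3.21% lower. They were Tat (1.67 ± 0.26 (SE, limma adjusted p = 0.0355)), Cbs (0.63 ± 0.10 (SE, limma adjusted p = 0.0382)) and Cdo1 (0.91 ± 0.16 (SE, limma adjusted p = 0.048)). Oat and Gldc had similar sizes there, 1.56 ± 0.54 (SE, limma adjusted p = 0.183) and -0.94 ± 0.31 (SE, limma adjusted p = 0.162), without passing. The contrast through wild type was fitted on loess ratios, while the direct one was fitted on the deposited processed ratios. With processed ratios the contrast through wild type called 0 members and 215 genes. Tdo2 and Bckdhb, called in a single comparison with wild type, were called neither directly (-0.91 ± 0.52 (SE, limma adjusted p = 0.268) and 0.68 ± 0.21 (SE, limma adjusted p = 0.0817)) nor through wild type. The interaction, which asks whether Nrf2 loss acts differently with and without Atg7, called 0 members in the fit without a block, where 0.132% of all genes were called higher and 0.588% lower. At an unadjusted p under 0.05 it gave 5 members in limma, where 14.5% of all genes passed that threshold, a share close to that of the members. They were the 5 of the direct arrays, with Tat at 1.49 ± 0.32 (SE, limma adjusted p = 0.136), Oat at 1.70 ± 0.66 (SE, limma adjusted p = 0.341) and Gldc at -1.06 ± 0.37 (SE, limma adjusted p = 0.3). With the set of experiments (1 to 3 or 4 to 6) as a block in the fit, the contrast through wild type called 4 members higher (Tat, Oat, Cdo1 and Cbs) and Gldc lower, where 3.57% of all genes were called higher and 5.01% lower. The interaction then called 2 members higher, Oat (1.70 ± 0.16 (SE, limma adjusted p = 0.0271)) and Tat (1.49 ± 0.15 (SE, limma adjusted p = 0.0289)), where 0.558% of all genes were higher and 1.42% lower. With either direct experiment left out, or with the direct arrays fitted alone, the 5 direct calls fell to 0, and without experiment 1 or 4 they fell to 3. The 3 calls through wild type fell to 1 without experiment 2 and to 0 without any other of the 6 experiments.

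The direct experiments repeated differences already present between the arrays with wild type. On the same processed scale, the ratio of experiment 7 differed from experiment 3 minus experiment 2 by a median of 0.075 log2 units over the 37 members, and from experiment 6 minus experiment 5 by 0.726. Experiment 8 showed the reverse, with 0.062 from experiment 6 minus experiment 5 and 0.644 from experiment 3 minus experiment 2. Over all genes the matching pairs differed by 0.105 and 0.085 and the other pairs by 0.290 and 0.296. Whether the same RNA was hybridised again is not given in the labels, so the direct arrays and the contrast through wild type may not be separate livers. The direct fit took its spread from all 8 experiments as if they were separate. Its standard errors and p-values hold only if they were.

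**Figure D3:**
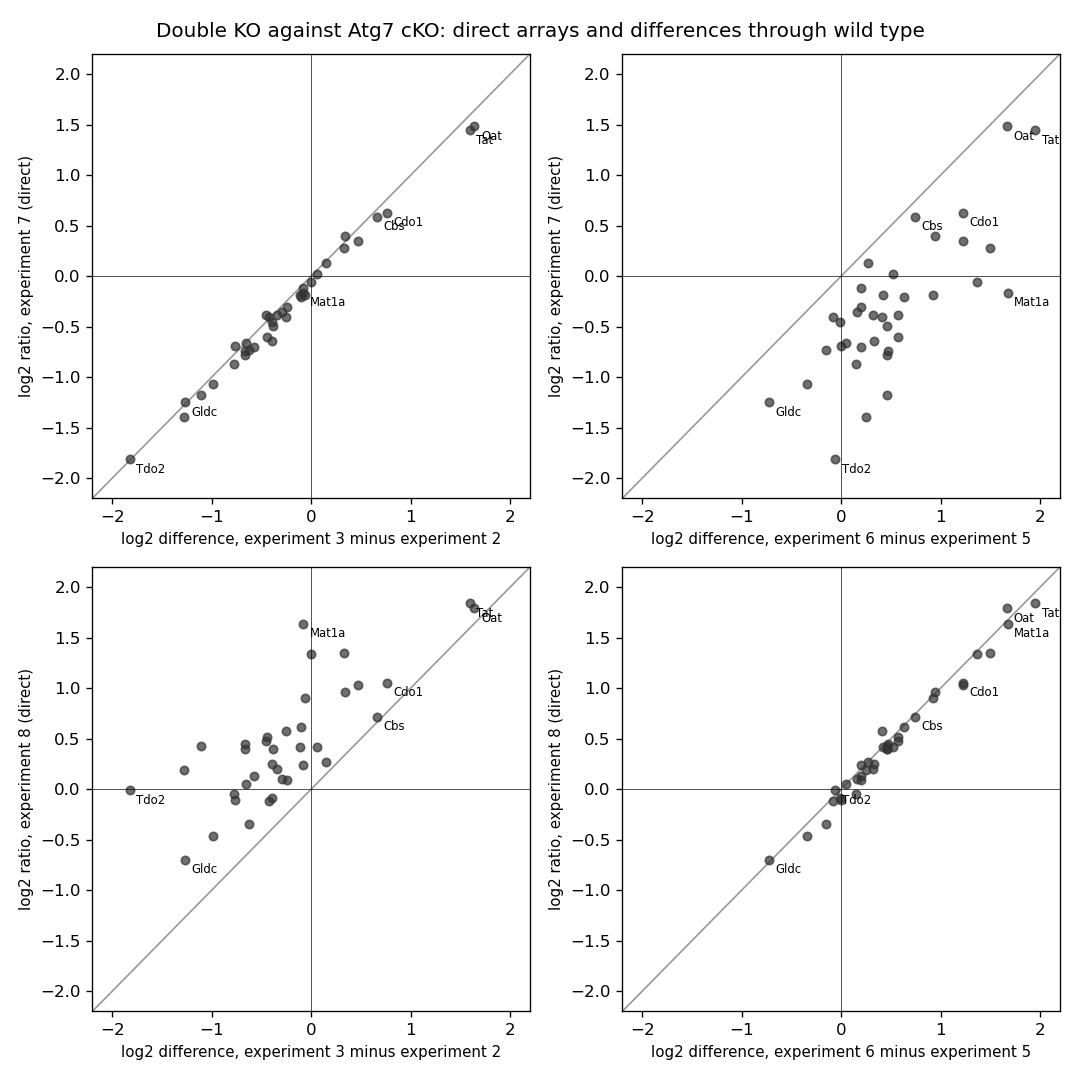
Each point is 1 of the 37 members, with the log2 ratio of double KO over Atg7 cKO on the direct arrays (vertical axes, experiment 7 above and experiment 8 below) against the difference of 2 experiments with wild type (horizontal axes), and a grey line where both are equal. Points lie along the line for experiment 7 with experiments 3 and 2 and for experiment 8 with experiments 6 and 5, and scatter in the other panels, where the median distance is 0.726 and 0.644.

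The sets also differed in the depth of the decrease. Of the 37 members 33 had a lower ratio in Atg7 cKO experiment 5 than in experiment 2, with a median difference of -0.33, whereas 47.8% of all genes tested were lower in experiment 5. In double KO livers the order was turned, since 29 members were lower in experiment 3 than in experiment 6, where 52.9% of all genes were. All 37 members were lower in direct experiment 7 than in experiment 8, where 51.6% of all genes were. Among direct values, Mat1a had -0.16 and 1.64, Hpd -0.061 and 1.34, Bhmt -1.39 and 0.19 and Prodh -1.18 and 0.42 in experiments 7 and 8, so that the group mean of each stands for values that differ by more than 1 log2 unit. With 1 experiment of each comparison in a set, differences between sets within a comparison could not be tested.

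**Figure D4:**
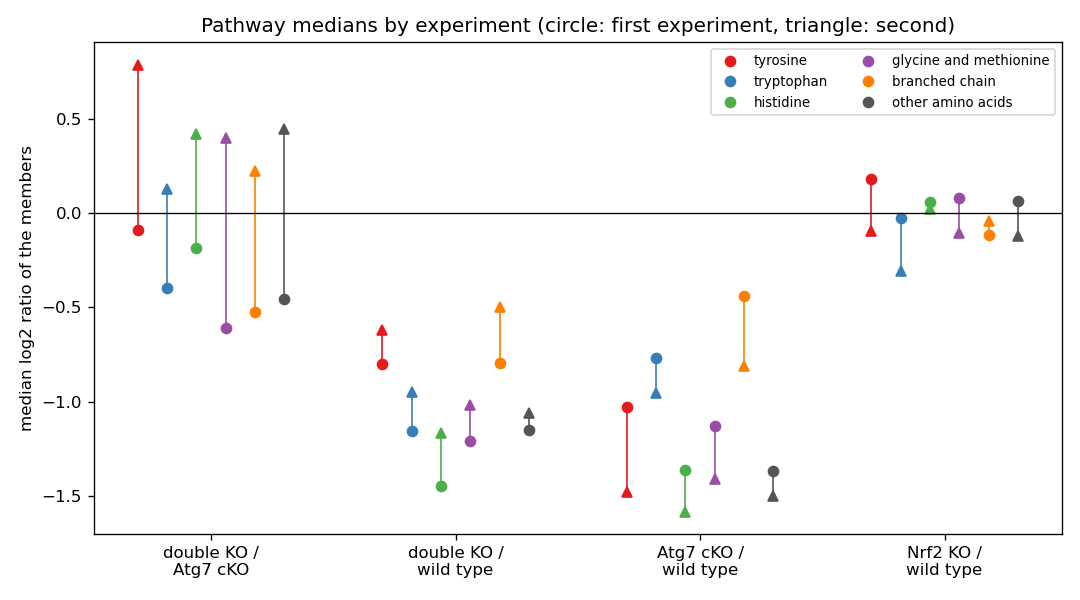
Median log2 ratio of the members of each of 6 pathways (colours) in each experiment, with a circle for the first and a triangle for the second experiment of a comparison. The medians span -0.61 to 0.79 in the direct comparison, with every pathway higher in experiment 8, are at -0.44 or lower in double KO and Atg7 cKO livers, and lie between -0.31 and 0.18 in Nrf2 KO livers.

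Wild-type liver itself differed between the sets. The level of 19 members did not overlap between the wild-type channels of experiments 4 to 6 and those of experiments 1 to 3, 12 being higher and 7 lower in experiments 4 to 6, where 20.4% of all genes were higher and 20.5% lower without overlap. Oat differed most, with a log2 signal of 13.21 to 13.64 in experiments 4 to 6, against 12.34 to 12.55 in experiments 1 to 3. Tat had 13.32 to 13.62 in experiments 4 to 6, against 12.73 to 12.96 in experiments 1 to 3, and Hpd 12.81 to 13.10 in experiments 4 to 6, against 12.27 to 12.63 in experiments 1 to 3. Sds had 10.69 to 10.85 in experiments 4 to 6, against 11.30 to 11.42 in experiments 1 to 3, and Ftcd 12.46 to 12.68 in experiments 4 to 6, against 12.94 to 13.09 in experiments 1 to 3. The Atg7 cKO levels of Oat were alike in both sets (10.66 and 10.58 in experiments 2 and 5), while its ratios to wild type were -1.89 and -3.06. Channels of a set may hold the same wild-type RNA, so no test was made.

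Of 52 further genes of the same pathways 49 were tested. In double KO livers 39 fell and 2 rose (Mat2a and Sdsl), with a median of -0.80, where 15.9% of all genes were called lower and 21.2% higher. In Atg7 cKO livers 29 fell and 2 rose (Mat2a and Chdh), with a median of -0.51, where 16.2% of all genes were called lower and 23.2% higher. Chdh (choline dehydrogenase) and Sdsl were named after their values were seen. Afmid (kynurenine formamidase) had log2 ratios of -1.82 ± 0.10 (SE, limma adjusted p = 0.000729) in double KO and -1.73 ± 0.10 (SE, limma adjusted p = 0.000838) in Atg7 cKO livers. The glycine and sarcosine enzymes Pipox, Sardh and Dmgdh had -1.51, -1.66 and -1.40 in double KO and -1.58, -1.55 and -1.48 in Atg7 cKO livers, and Aldh4a1 of proline breakdown had -0.91 and -1.43. All 5 fell in both comparisons. Mat2a, the methionine adenosyltransferase typical of tissues other than adult liver, rose where Mat1a fell, with 0.75 ± 0.12 (SE, limma adjusted p = 0.0076) in double KO and 1.44 ± 0.12 (SE, limma adjusted p = 0.00141) in Atg7 cKO livers. In the direct comparison 7 of the 49 were lower in double KO and 0 higher, where 8.07% of all genes were called lower and 6.72% higher. Mat2a was among the 7 (-0.68 ± 0.17 (SE, limma adjusted p = 0.0473)).

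Markers of liver cell types were also called in the same livers. Over all genes, 15.9% were called lower and 21.2% higher in double KO livers, and 16.2% lower and 23.2% higher in Atg7 cKO livers. The marker lists are short, and none was tested against these shares. Of 8 measured hepatocyte markers 5 were lower and 1 higher in double KO and 7 lower in Atg7 cKO livers, and their mean log2 signal was 12.49 to 13.00 in double KO, 12.13 to 12.20 in Atg7 cKO, 13.16 to 13.34 in Nrf2 KO and 13.04 to 13.65 in wild-type channels. All 9 macrophage markers were higher in double KO and 8 of 9 in Atg7 cKO livers (mean signal 10.40 to 10.53, 9.72 to 10.29, 8.23 to 8.28 in Nrf2 KO and 8.17 to 8.41 in wild type). Of the 8 stellate cell markers 5 were higher in each (8.33 to 8.51, 8.45 to 8.58, 7.62 to 7.73 and 7.56 to 7.72 in the same order of groups). Of the lymphocyte markers 5 of 9 were higher in double KO and 3 of 9 in Atg7 cKO livers (6.50 to 6.63, 6.26 to 6.36, 6.18 to 6.24 and 6.14 to 6.22), and of the neutrophil markers 3 of 6 and 2 of 6 were higher (7.50 to 7.62, 6.57 to 7.06, 6.35 to 6.43 and 6.26 to 6.50). Cholangiocyte markers were higher for 2 of 5 in each (7.45 to 7.56, 7.53 to 7.57, 6.79 to 6.82 and 6.83 to 6.94). Of 7 endothelial markers 3 were lower and 1 higher in double KO and 2 higher in Atg7 cKO livers (7.83 to 8.20, 8.33 to 8.41, 8.25 to 8.32 and 8.14 to 8.31). The part of these markers in the decrease of the members was not tested.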

How the data were processed

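Liver RNA of mice was measured on 2-colour Agilent arrays in 8 experiments, each with a dye swap. The submitters' processing notes name Agilent Feature Extraction 9.5.1 as the tool with which the authors read intensities from the scans, and the deposited files of experiments 1 to 6 hold the mean intensity and median background of each spot. For experiments 7 and 8 only the deposited value table was used, in which the authors give log10 ratios of the processed signals; in experiments 1 to 6 it matched the scanner files' own log10 ratio to within 0.005. The median mean signal per channel was 41.8 to 55.6 against a background of 34.5 to 36.5, with 43.4 to 57.2% of spots well above background, and the number of arrays limits the precision.

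Signals were corrected with normexp (offset 50), normalized by loess within each array with limma 3.58.1 in R 4.3.3, turned to knockout over partner, and averaged over the dye swap, so that an experiment is 1 replicate. Probes well above background in at least 4 of 24 channels were kept and the brightest kept probe stood for a gene (16672 genes). Ratios are log2. Group means were fitted with lmFit and eBayes over experiments 1 to 6, and for the direct comparison over all 8 experiments on the value table converted to log2, with Benjamini-Hochberg adjustment over all genes and a threshold of 0.05. Levels are log2 signals per channel after loess and between-array quantile scaling of the average intensity. Scripts were tested on simulated data. Members and lists were chosen with earlier results of these data known, so no list was tested. Every member is named. Knockout signals in every experiment, beside the wild-type range, are given for the 2 called members of each pathway with the largest absolute ratio in each comparison with wild type and for all members called in the direct comparison or through wild type, and of the other pathway genes the 6 with the largest called ratios in Atg7 cKO are named. Alternatives covered background offset, processed ratios, median centring, probe filters, probe averaging, slide, set of experiments, dye and leaving out each experiment.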

Additional observations from a re-analysis of the deposited data

Results flagged for a closer look

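In the wild-type channels of experiments 1 to 6, the log2 signal of Hgd was 11.75 in experiment 3 and 11.61 to 11.65 in the other 5, and the gap to the next value was 0.699 of the whole range. The range itself is narrow, and chance marks about 1 in 20 groups of this size. Of the 37 members tested in this way Hgd was the only one marked.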

How the results depend on the processing

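No member changed direction where it was called. The double KO and Atg7 cKO counts of members stayed within 1.5 times of 32 and 31 under every alternative run except median centring in Atg7 cKO (19) and leaving out an experiment (18 to 31 in double KO, lowest without experiment 3, and 21 to 34 in Atg7 cKO). Median centring moved the median of all genes to 0.14 in double KO and 0.21 in Atg7 cKO and the member medians to -0.71 and -0.66. It raised the share of calls that were higher to 85.7% in double KO and 90.7% in Atg7 cKO, and processed log ratios lowered it to 46.6% and 48.7%, against 57.2% and 58.9% with loess. Leaving out an experiment gave 2855 to 6231 called genes in double KO and 3205 to 5952 in Atg7 cKO, where the full fits gave 6187 and 6571.

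For double KO directly against Atg7 cKO, the 5 members became 2 with no filter on dim probes, 8 with probes well above background in all channels, 11 with single arrays and a dye term, 0 with the direct arrays alone, 3 through wild type and 0 to 5 when an experiment was left out. The 2466 genes became 4277 with single arrays, 107 with the direct arrays alone, 827 through wild type and 307 to 1863 with an experiment left out. Through wild type, the 3 members became 0 with processed ratios, 0 with median centring, 2 without the filter, 2 with slide as a fixed block, 5 with the set of experiments as a block, 8 with single arrays and 0 to 1 with an experiment left out. The 827 genes became 215 with processed ratios, 379 with median centring, 199 and 1702 with slide as a fixed and a random block, 1430 with the set as a block, 2487 with single arrays and 81 to 386 with an experiment left out. In the interaction, the 0 members became 1 with slide as a random block, 2 with the set as a block and 4 with single arrays, and the 120 genes became 6 with processed ratios, 66 with median centring, 0 and 316 with slide as a fixed and a random block, 329 with the set as a block, 1208 with single arrays and 2 to 63 with an experiment left out. In Nrf2 KO, the 2 genes became 0 with median centring, 1 without the filter, 4 with slide as a fixed block, 11 with the set as a block, 91 with single arrays and 0 to 2 with an experiment left out, and the members stayed at 0. The single-array fit counts dye swaps of an experiment as separate arrays; the cause of the other shifts was not tested. Updating symbols added 0 probes to the members. The labels give no experiment number shared between groups, so samples were paired only by the set of experiments as a block. That block gave 34 members in double KO, with Oat and Cdo1 added, and 32 in Atg7 cKO, with Mccc1 added, all lower. Its calls through wild type and in the interaction are those above.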
